A study of Mus musculus with 6 samples.

Results

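The genes described here make cholesterol in the liver and keep its synthesis under SREBP-2 control. They were chosen by name, 28 genes of the 40803 in the count table, and all 28 had counts. By role they fell into 8 enzymes of the mevalonate part of the pathway, 11 enzymes of the sterol branch, 4 genes that control SREBP-2 and 5 genes of sterol uptake, transport and storage. The list is not every gene of the pathway. RNA-seq was done on the livers of male C57BL6 mice, 3 given rAAV8-sh-scramble and 3 given rAAV8-sh-Hnf1aos1, with 1 library per mouse. The vector, rAAV8, is an adeno-associated virus with a liver-directed capsid, given into the tail vein. In both groups it carried a short hairpin RNA driven by the U6 promoter together with an EGFP reporter, and the hairpin was either a scrambled sequence or directed against the lncRNA Hnf1aos1. The mice were about 6 weeks old at injection, were fed normally, and their livers were taken 4 weeks later. No mouse without virus was sequenced among these libraries, so both groups share the vector and its reporter.

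Cholesterol is built from acetyl-CoA. The mevalonate enzymes carry it to farnesyl diphosphate, and the sterol branch, starting with squalene synthase, closes and trims the ring until cholesterol is reached. The transcription factor SREBP-2, the product of Srebf2, is held in the endoplasmic reticulum by SCAP and the INSIG proteins while sterol is plentiful. When sterol falls, SCAP escorts SREBP-2 to the Golgi, where it is cut, and the freed part binds sterol regulatory elements in the promoters of these enzymes, usually beside NF-Y (which binds CCAAT) and Sp1 (which binds GGGCGG). Regulation after translation, which is strong in this pathway, is not seen in RNA.

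The promoter sequences of 4 members are shown to let the letters of these elements be read beside the counts of the genes. Hmgcs1 and Mvk are mevalonate enzymes, Cyp51 was the only member called between the groups, and Insig1 is both a target and a brake of SREBP-2. The sequences are RefSeq's (GRCm38.p6), taken from the 250 bases before each gene's start and limited to bases outside every exon of GENCODE M21. They lie at chr13:119690101-119690350 on the plus strand (Hmgcs1), chr5:114444061-114444268 on the plus strand (Mvk), chr5:4104747-4104947 on the minus strand (Cyp51) and chr5:28071162-28071362 on the plus strand (Insig1). Each is written 5′ to 3′ on the gene's strand, and capitals mark CACNCCAC (a core of the sterol regulatory element), CCAAT and GGGCGG on either strand.
Hmgcs1: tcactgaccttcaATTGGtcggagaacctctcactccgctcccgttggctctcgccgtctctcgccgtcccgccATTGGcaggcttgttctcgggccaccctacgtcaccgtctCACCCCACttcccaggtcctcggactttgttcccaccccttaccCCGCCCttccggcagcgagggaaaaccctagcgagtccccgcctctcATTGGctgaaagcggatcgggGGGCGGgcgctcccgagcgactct
Mvk: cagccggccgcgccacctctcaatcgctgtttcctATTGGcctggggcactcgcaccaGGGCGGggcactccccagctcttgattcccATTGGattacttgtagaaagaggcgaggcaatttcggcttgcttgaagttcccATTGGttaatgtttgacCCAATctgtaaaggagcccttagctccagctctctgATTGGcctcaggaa
Cyp51: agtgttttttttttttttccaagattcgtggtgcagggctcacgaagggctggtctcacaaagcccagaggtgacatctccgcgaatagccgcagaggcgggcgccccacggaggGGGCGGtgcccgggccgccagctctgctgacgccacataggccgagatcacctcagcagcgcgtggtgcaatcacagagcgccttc
Insig1: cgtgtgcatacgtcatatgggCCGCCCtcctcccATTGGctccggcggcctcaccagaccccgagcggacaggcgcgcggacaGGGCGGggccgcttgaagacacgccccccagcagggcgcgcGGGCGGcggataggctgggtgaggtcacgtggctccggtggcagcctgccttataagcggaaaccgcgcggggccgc
The window of Hmgcs1 held 1 CACNCCAC, 3 CCAAT and 2 GGGCGG, and that of Mvk held 0, 5 and 1. The printed window of Cyp51 held 0 CACNCCAC, 0 CCAAT and 1 GGGCGG, and that of Insig1 held 0, 1 and 3. The bases left out, which lie in exons of GENCODE M21, held further matches. These were a CCAAT 29 bases before RefSeq's start of Cyp51 and a CACNCCAC 9 bases before that of Insig1. For Mvk it was a GGGCGG 216 bases before the start. RefSeq windows of 250 bases were found for 22 of the 28 members, the exceptions being Fdps, Fdft1, Sqle, Stard4, Soat2 and Npc1. Over these full windows CCAAT was present in 20 of 22 (90.9%), against 37.5% of the 27025 genes with a window. GGGCGG was likewise present in 20 of 22, against 35.4% of all genes. CACNCCAC was found in 3 members (13.6%), namely Acat2, Hmgcs1 and Insig1, against 6.05% of all genes, and the E-box CACGTG in 5 members (22.7%) against 6.86%. CCAAT was in the windows of 15 of the 16 enzymes that had one, Acat2 being the exception. A gene counted when any of its windows held the letters, and the 22 members had 28 windows. The 27025 genes were not limited to those tested in these livers, as the members were. These matches describe the letters in a short window and say nothing of which factor was bound in these livers.

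Counts assigned to genes ranged from 14704746 to 19462398 per library. Counts below are normalized counts, raw counts scaled by edgeR's TMM factors to a common library size, and fold changes compare rAAV8-sh-Hnf1aos1 with rAAV8-sh-scramble. A gene was called when its p from edgeR's quasi-likelihood test, adjusted over all 16327 genes tested (Benjamini-Hochberg), was below 0.05. Each p-value sets the difference between the groups against the spread between mice within a group, estimated by sharing information over all genes. The targeted lncRNA Hnf1aos1 had 512, 491 and 620 normalized counts in the scramble libraries and 278, 258 and 433 in the knockdown libraries. Every knockdown library was below every scramble library, with a log2 fold change of -0.74 (SE 0.20, adjusted p = 0.0625 in edgeR), so the targeted gene itself was not called. Its adjusted p ranged from 0.000261 to 0.218 when single libraries were left out, and Hnf1aos1 shares 31.8% of its exon bases with its neighbours in GENCODE M21. Hepatocyte markers were abundant in all 6 libraries: 10 of 10 were tested, and their summed normalized counts were 1691467 to 1911352 for scramble and 1969252 to 2219296 for knockdown.

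Cholesterol synthesis enzymes had more RNA in the rAAV8-sh-Hnf1aos1 livers on average, but few of the differences exceeded the spread between mice. Of the 28 members, 22 had a log2 fold change above 0 and 6 below, and the median was 0.29 where that of all genes tested was -0.0004. Cyp51 alone was called, as higher, which is 1 of 28 where 6.32% of all genes were called in either direction (3.09% higher and 3.23% lower). At an unadjusted p below 0.05 in edgeR there were 12 of 28 members, 11 above 0 and 1 below, against 3822 of the 16327 genes tested. In 7 members every knockdown library lay above every scramble library (Mvk, Pmvk, Idi1, Sqle, Lss, Cyp51 and Npc2), 25.0% where 15.2% of all genes did so. Only Soat2 had every knockdown library below every scramble library, 1 of 28 where the share of all genes was 13.7%. By role, the enzymes' median log2 fold change was 0.50 with 17 of 19 above 0, while the median of the 9 genes of control, transport and storage was 0.01 with 5 above 0. The difference between these lists was not tested. In bulk liver, more cells of a type and more RNA per cell cannot be told apart.

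**Figure D1:**
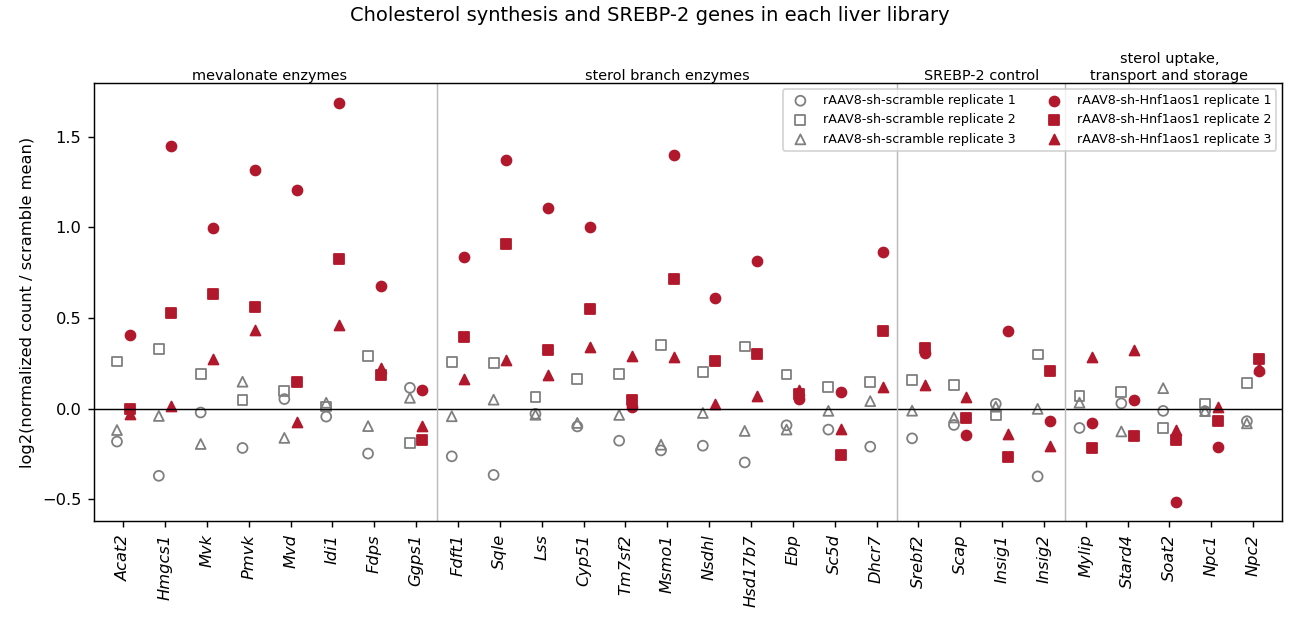
Each point is 1 library's normalized count of a member as a log2 ratio to the mean of the 3 rAAV8-sh-scramble libraries (vertical axis), with members in pathway order on the horizontal axis, grey open symbols for rAAV8-sh-scramble and red filled symbols for rAAV8-sh-Hnf1aos1. Among the 19 enzymes, rAAV8-sh-Hnf1aos1 replicate 1 is the highest knockdown library in 17, and of the 9 genes to the right it is the highest in Insig1 only.

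Along the mevalonate part, which supplies the isoprene units, the log2 fold changes ran from -0.05 to 1.09 with a median of 0.60, and 7 of the 8 enzymes were above 0. Hmgcs1, which joins acetoacetyl-CoA and acetyl-CoA, had 4791, 7776 and 6025 normalized counts in the scramble libraries and 16897, 8926 and 6258 in the knockdown libraries. The groups overlapped, since knockdown replicate 3 lay below scramble replicate 2, and the log2 fold change of 0.79 had an SE of 0.43 (adjusted p = 0.351 in edgeR). Acat2, the cytosolic thiolase that supplies acetoacetyl-CoA, differed little, with 779 to 1058 normalized counts for scramble and 867 to 1170 for knockdown (log2 fold change 0.14, adjusted p = 0.616 in edgeR).

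Mvk, the kinase that phosphorylates mevalonate, had 160, 186 and 142 normalized counts in the scramble libraries and 324, 252 and 197 in the knockdown libraries, with no overlap. Its log2 fold change was 0.66 (SE 0.18, adjusted p = 0.0574 in edgeR). Pmvk, the kinase of the next step, had 102, 122 and 131 normalized counts against 294, 174 and 159, again without overlap (log2 fold change 0.82, SE 0.23, adjusted p = 0.0691 in edgeR). Both kinases thus lay just outside the limit for a call. Mvd, which removes the carboxyl group, had 341, 351 and 294 normalized counts against 758, 363 and 312. For Mvd, knockdown replicates 1 and 2 were above the scramble range, replicate 2 by little, and replicate 3 was within it, and the log2 fold change was 0.54 with an SE of 0.37 (adjusted p = 0.450 in edgeR).

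Idi1, the isomerase of isopentenyl diphosphate (chr13:8885501-8892451, plus strand, GRCm38), had the largest fold change of the 28 members. It had 941, 978 and 992 normalized counts in the scramble libraries, a spread of 2.73% (coefficient of variation), and 3128, 1722 and 1337 in the knockdown libraries, a spread of 45.7%. All knockdown libraries were above all scramble libraries, but they differed among themselves by up to 2.34 times, and the log2 fold change of 1.09 (SE 0.34) had an adjusted p of 0.136 in edgeR. Without rAAV8-sh-Hnf1aos1 replicate 1 the log2 fold change of Idi1 was smaller and the error smaller still (0.65, SE 0.11, adjusted p = 0.0105 in edgeR), and Idi1 was then the only member called. Fdps, which makes farnesyl diphosphate, had 2212, 3214 and 2457 normalized counts against 4206, 2984 and 3072 (log2 fold change 0.38, adjusted p = 0.225 in edgeR), with overlap. Ggps1, which leads away from sterols to geranylgeranyl diphosphate, was level at 292 to 361 normalized counts for scramble and 296 to 359 for knockdown (log2 fold change -0.05, adjusted p = 0.839 in edgeR, above 0 with spike-in scaling).

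The sterol branch gave the only call. Cyp51, the lanosterol 14α-demethylase (chr5:4081145-4104746, minus strand, GRCm38), had 2331, 2795 and 2362 normalized counts in the scramble libraries and 5003, 3649 and 3159 in the knockdown libraries. The groups did not overlap, and Cyp51 rose by a log2 fold change of 0.66 (SE 0.16, adjusted p = 0.0450 in edgeR), from a mean of 2496 ± 259 to 3937 ± 955 normalized counts (SD, n = 3). The call was close to its limit: 5 of 16 other settings also made it, and without rAAV8-sh-Hnf1aos1 replicate 1 the log2 fold change of Cyp51 was 0.44 with an adjusted p of 0.0540 in edgeR. Cyp51 shares 3.76% of its exon bases with Akap9 on the opposite strand.

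Squalene is made by Fdft1 and oxidized by Sqle, and Lss then closes the ring. Fdft1 had 1268, 1821 and 1478 normalized counts in the scramble libraries and 2720, 2001 and 1707 in the knockdown libraries (log2 fold change 0.49, adjusted p = 0.177 in edgeR), and 18.3% of its exon bases are shared with Ctsb on the opposite strand. The groups overlapped for Fdft1 because knockdown replicate 3 fell below scramble replicate 2. Sqle had 840, 1289 and 1121 normalized counts against 2807, 2032 and 1302. No library of Sqle crossed over, although the lowest knockdown and the highest scramble library were nearly equal, and the log2 fold change was 0.92 (SE 0.32, adjusted p = 0.176 in edgeR). Lss had 905, 964 and 902 normalized counts against 1992, 1157 and 1051 (log2 fold change 0.60, SE 0.25, adjusted p = 0.210 in edgeR). The scramble libraries agreed to 3.78% for Lss while the knockdown libraries spread over 36.8% (coefficients of variation).

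**Figure D2:**
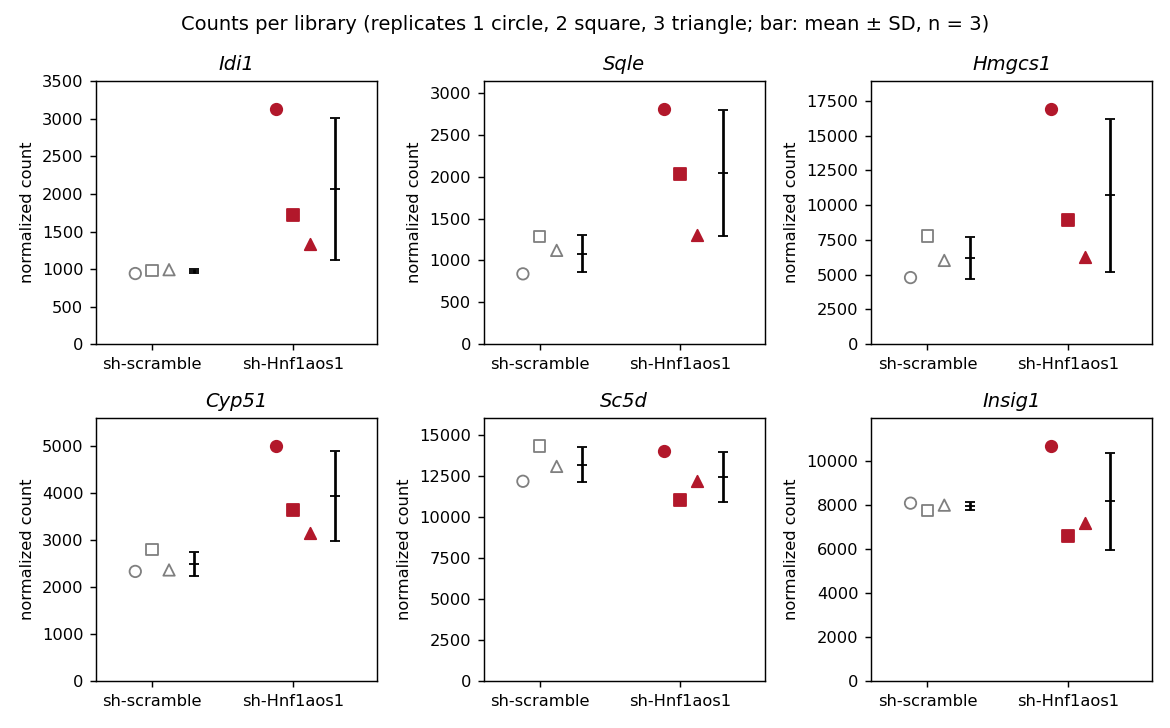
Normalized counts (vertical axis, from 0) of 6 members in each library of rAAV8-sh-scramble (grey open symbols) and rAAV8-sh-Hnf1aos1 (red filled symbols), with the mean ± SD (n = 3) beside the points. Idi1, Sqle and Cyp51 have no overlap between the groups, Hmgcs1 and Sc5d do overlap, and in Insig1 only 1 knockdown library, at 10670, is above the scramble libraries.

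The enzymes that act on the ring after Cyp51 were of unequal size in fold change. Msmo1, the C4-methylsterol oxidase, had 1829, 2742 and 1870 normalized counts in the scramble libraries and 5672, 3523 and 2617 in the knockdown libraries (log2 fold change 0.87, SE 0.34, adjusted p = 0.208 in edgeR). Dhcr7, the 7-dehydrocholesterol reductase, had 1494, 1913 and 1778 normalized counts against 3142, 2322 and 1878 (log2 fold change 0.50, SE 0.18, adjusted p = 0.150 in edgeR). In both genes knockdown replicate 3 overlapped the scramble range. Nsdhl and Hsd17b7, which act with Msmo1 in removing the C4 methyl groups, had log2 fold changes of 0.32 and 0.43 (adjusted p = 0.252 and 0.341 in edgeR). The remaining enzymes of the ring were close to 0: Tm7sf2, a sterol C14 reductase, at 0.12, Ebp, the sterol isomerase, at 0.08, and Sc5d, the C5 desaturase, at -0.09. Sc5d had 12165, 14319 and 13071 normalized counts under scramble and 14021, 11019 and 12212 under knockdown, with overlapping ranges (adjusted p = 0.702 in edgeR, above 0 with spike-in scaling).

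**Figure D3:**
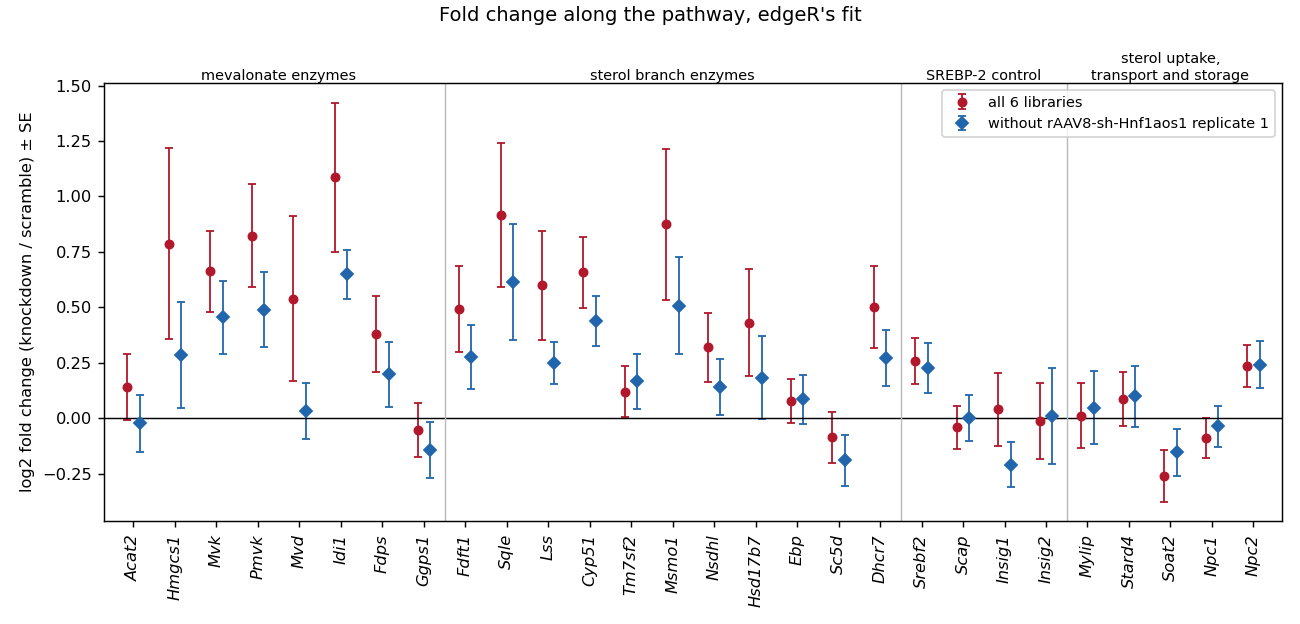
Log2 fold change of rAAV8-sh-Hnf1aos1 over rAAV8-sh-scramble with its SE (vertical axis) for the 28 members in pathway order, from edgeR's fit of all 6 libraries (red circles) and without rAAV8-sh-Hnf1aos1 replicate 1 (blue diamonds). The median over the 19 enzymes is 0.50 with all libraries and 0.25 without that library, and the points of the 9 control, transport and storage genes stay near 0 in both.

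None of the 4 SREBP-2 control genes was called. Srebf2, which encodes SREBP-2, had 972, 1215 and 1080 normalized counts in the scramble libraries and 1347, 1372 and 1192 in the knockdown libraries. Knockdown replicate 3 fell within the scramble range, and the log2 fold change was 0.26 (SE 0.10, adjusted p = 0.157 in edgeR). Scap, the escort, had 2440 to 2843 normalized counts under scramble and 2351 to 2720 under knockdown (log2 fold change -0.04, adjusted p = 0.840 in edgeR, above 0 with spike-in scaling). Insig1, which retains the complex and is itself an SREBP target, had 8071, 7725 and 7981 normalized counts against 10670, 6586 and 7186. Its first knockdown library was above all scramble libraries and the other two were below them, so that a log2 fold change of 0.04 (SE 0.16, adjusted p = 0.910 in edgeR, below 0 with library totals) stood for a wide spread, 27.1% among knockdown and 2.27% among scramble libraries (coefficients of variation). Insig2 varied in both groups, from 2348 to 3744 and from 2640 to 3520 normalized counts (log2 fold change -0.01, adjusted p = 0.975 in edgeR, above 0 with spike-in scaling).

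Among the genes of sterol uptake, transport and storage, log2 fold changes ran from -0.26 to 0.24 with none called. Soat2, the hepatocyte enzyme that esterifies cholesterol for storage and secretion, had 583, 546 and 636 normalized counts in the scramble libraries and 412, 522 and 541 in the knockdown libraries. It was the 1 member with no overlap in the lower direction (log2 fold change -0.26, SE 0.12, adjusted p = 0.211 in edgeR). Npc2, a lysosomal cholesterol carrier, had 480, 555 and 476 normalized counts against 583, 608 and 590, without overlap (log2 fold change 0.24, SE 0.10, adjusted p = 0.162 in edgeR). Its membrane partner Npc1 had 2583, 2660 and 2583 normalized counts against 2252, 2489 and 2625 (log2 fold change -0.09, adjusted p = 0.595 in edgeR, above 0 with spike-in scaling), so under TMM scaling the fold changes of the pair had opposite signs, neither past the limit. Mylip, the ubiquitin ligase that degrades lipoprotein receptors, had a log2 fold change of 0.01 (adjusted p = 0.972 in edgeR, below 0 with library totals), and Stard4, a cytosolic sterol carrier, had 0.09 (adjusted p = 0.714 in edgeR).

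Library by library, most of the enzymes shared an order. Replicate 1 was the highest of the knockdown libraries in 17 of 19 enzymes (89.5%), where it was so in 35.9% of the 11786 genes tested with a mean of at least 50 normalized counts. The exceptions were Tm7sf2 and Ebp, both highest in replicate 3. In 14 of 19 enzymes (73.7%, against 21.0% of all those genes) the knockdown libraries fell in the order replicate 1, 2 and 3. Against the scramble mean the enzymes had a median log2 ratio of 0.86 in knockdown replicate 1, 0.33 in replicate 2 and 0.17 in replicate 3. Replicate 1 exceeded all scramble libraries in 15 of 19 enzymes (78.9%, against 37.6% of all those genes) and replicate 2 in 12 (63.2%, against 36.9%). Replicate 3 did so in 7 (36.8%), near the 34.3% of all those genes. The scramble libraries had an order of their own, replicate 2 being the highest in 16 of 19 enzymes (84.2%, against 38.2% of all those genes), though with median log2 ratios between -0.18 and 0.19. The median coefficient of variation of the enzymes was 12.9% under scramble and 24.9% under knockdown, where it was 8.996% and 9.995% over all those genes. Genes of 1 pathway are not independent, and these shares carry no test.

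Of the 9 control, transport and storage genes, only Insig1 was highest in knockdown replicate 1, and none followed the order of replicates 1, 2 and 3. They shared the scramble order, replicate 2 being the highest scramble library in 7 of 9 (77.8%). Leaving out knockdown replicate 1 lowered the enzyme median to 0.25 with 16 of 19 above 0. That fit left 6 of 28 members with an unadjusted p below 0.05 in edgeR, where 3290 of the 16733 genes tested did so. It gave 1 call, Idi1, where 3.77% of all genes were called. In that fit the log2 fold changes were smaller for Hmgcs1 (0.28 in place of 0.79), Mvd (0.03 in place of 0.54), Pmvk (0.49 in place of 0.82), Mvk (0.46 in place of 0.66) and Sqle (0.61 in place of 0.92). Leaving out knockdown replicate 3 instead raised the enzyme median to 0.66 and the calls to 7 members (Mvk, Pmvk, Idi1, Fdft1, Sqle, Cyp51 and Dhcr7), where 11.2% of all genes were called. Replicates 2 of knockdown and 1, 2 and 3 of scramble, each left out alone, gave 0 calls among the members, in fits where 1.93%, 3.74%, 2.34% and 0.619% of all genes were called.

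Markers of other liver cells were compared over the same libraries. Over all genes tested, 3.09% were called higher and 3.23% lower. The macrophage and monocyte list was higher in the knockdown group, with 3 of 10 genes called (Adgre1, Clec4f and Lyz2) and summed normalized counts of 3489 to 4174 for scramble and 4479 to 5638 for knockdown. These calls held in 1, 2 and 3 of the 6 fits that left out a library. Within the knockdown group this sum was highest in replicate 2. The cholangiocyte list had 0 of 4 tested genes called by edgeR and 0 at an unadjusted p below 0.05, but its summed normalized counts were 690, 581 and 655 in the scramble libraries and 2548, 917 and 837 in the knockdown libraries, the order in which the enzymes fell. That sum came mostly from Spp1, chosen after its values were seen, which macrophages can also express and which had 2161 normalized counts in knockdown replicate 1 and 426 and 513 in the other two. Of the 4 tested genes of this list, 3 had a log2 fold change above 0 and 1 below, with a median of 0.31. The 1 below was the cholangiocyte keratin Krt19. It had 14.3, 15.2 and 0.905 normalized counts in the knockdown libraries and 13.2 to 30.8 in the scramble libraries. Krt7 and Cftr were too low to be tested. Of the 10 hepatocyte markers, 3 rose (Fga, Fgb and Ahsg) and 0 fell, and Fga and Fgb encode fibrinogen chains, which are also acute-phase products. Endothelial, stellate and lymphocyte lists had 0 genes called by edgeR, with 0, 1 and 0 genes at an unadjusted p below 0.05, and all 8 stellate genes had a log2 fold change below 0 (median -0.27). The part of these cells in the enzymes' levels was not tested.

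Compared per length, as the TPM that the authors deposited, the members spanned 86.1 times in the scramble livers. Insig1 was the highest at 390 ± 17.0 TPM (SD, n = 3), followed by Sc5d at 349 ± 27.2, Fdps at 234 ± 43.2, Hmgcs1 at 191 ± 44.4 and Ebp at 143 ± 14.5. The lowest were Mvk at 11.9 ± 1.304, Mylip at 6.89 ± 0.5002, Ggps1 at 5.93 ± 0.743 and Pmvk at 4.53 ± 0.666 TPM. Of the 27 pairs of neighbours in this order, 22 had overlapping mean ± SD. The 5 steps that stood apart lay between Sc5d and Fdps, Msmo1 and Cyp51, Idi1 and Soat2, Lss and Mvk, and Mvk and Mylip. By this TPM the mevalonate kinases were among the least abundant transcripts of the pathway. The squalene and ring-closing enzymes Fdft1 (19.02 ± 3.30) and Lss (17.3 ± 0.469) were also low. The gene lengths behind the TPM are not given in the sources used here, and the order depends on them. Fdft1 had a mean of 1522 normalized counts under scramble and 4227 exon bases in GENCODE M21. Idi1 had 970 normalized counts and 3505 exon bases, yet its TPM was higher (44.1 ± 2.21). Summed over the 19 enzymes, TPM was 1364, 1788 and 1558 in the scramble libraries and 2691, 1754 and 1589 in the knockdown libraries. Knockdown replicates 2 and 3 lay within the scramble range, and the means of 1570 ± 212 and 2011 ± 594 TPM (SD, n = 3) overlapped within their SDs.

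**Figure D4:**
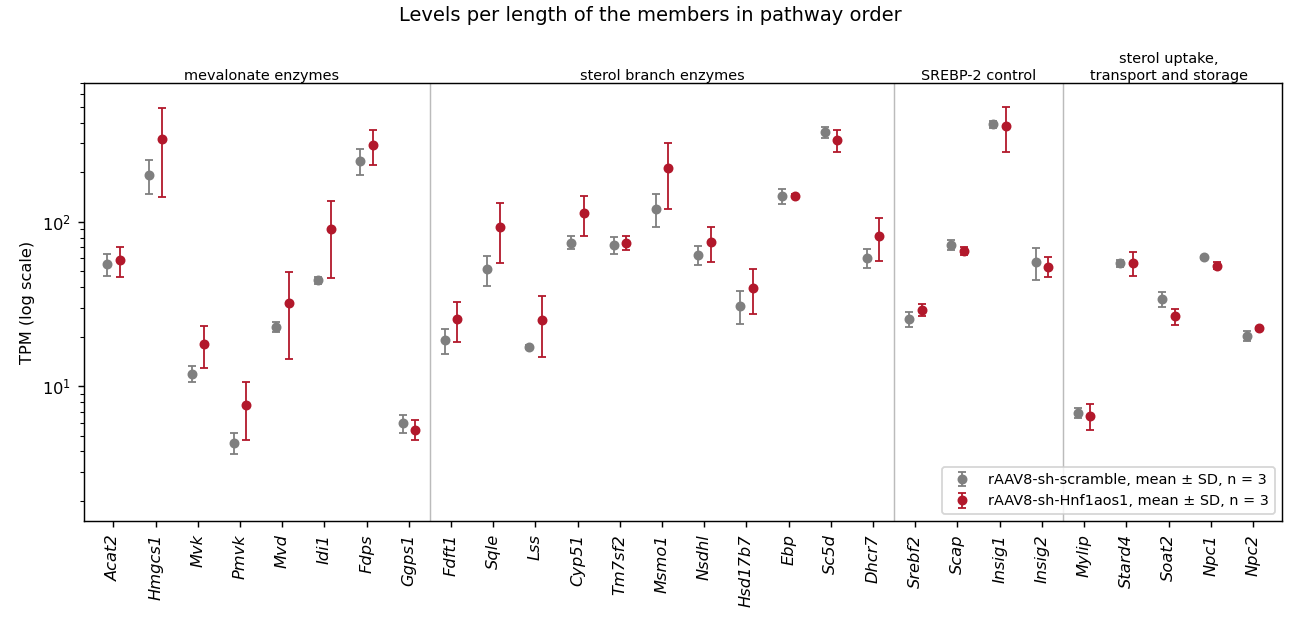
TPM of the 28 members on a log axis, mean ± SD of 3 libraries, with rAAV8-sh-scramble in grey and rAAV8-sh-Hnf1aos1 in red and members in pathway order. In rAAV8-sh-scramble, Insig1 and Sc5d are the most abundant and Pmvk and Ggps1 the least, and the knockdown SDs of Hmgcs1, Idi1 and Mvd are wider than those of scramble.

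Genes around the pathway were taken from lists by function. Here and below, rose and fell mean called higher and called lower, which held for 3.09% and 3.23% of all genes tested. Of 24 other genes of cholesterol synthesis and SREBP processing, 23 were tested, 1 rose and 0 fell, with a median log2 fold change of 0.08. Every knockdown library lay above every scramble library in 4 of the 23 and below in 2, against 15.2% and 13.7% of all genes. The one that rose was Erlin1, an endoplasmic reticulum protein linked to the restraint of SREBP activation, from 1149, 1084 and 1013 to 1542, 1454 and 1398 normalized counts (log2 fold change 0.44, SE 0.09, adjusted p = 0.0186 in edgeR), a call that held in 3 of the 6 fits that left out a library. In the isoprenoid branch, 1 of 13 genes rose and 0 fell. This was Dhdds, a subunit of the enzyme that makes dolichol from farnesyl diphosphate, with 350, 353 and 403 normalized counts under scramble and 506, 441 and 510 under knockdown (log2 fold change 0.40, SE 0.11, adjusted p = 0.0470 in edgeR), a call that held in 0 of those fits, with adjusted p up to 0.137.

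Sterol efflux and oxysterol genes, many of them LXR targets, were tested for 20 of 22 genes, of which 2 rose and 1 fell, with a median of 0.04. Cyp7b1, the oxysterol 7α-hydroxylase, rose from 3550, 3531 and 2861 to 7542, 7599 and 6050 normalized counts (log2 fold change 1.09, SE 0.12, adjusted p = 0.00154 in edgeR). Abca1, which exports cholesterol to apolipoprotein A-I, rose by a log2 fold change of 0.54 (adjusted p = 0.0154 in edgeR), and Lipa, the lysosomal lipase that frees cholesterol from esters, fell by 0.39 on the log2 scale (adjusted p = 0.0374 in edgeR). The call of Cyp7b1 held with each library left out, that of Abca1 in 3 of 6 such fits and that of Lipa in 1 of 6.

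Genes of fatty acid synthesis under SREBP-1c, the sister factor, had lower counts in the knockdown group. Of 18 genes, 0 rose and 6 fell, 15 lay below 0, and the median log2 fold change was -0.45. Srebf1, which encodes SREBP-1, had 3641, 4035 and 4396 normalized counts in the scramble libraries and 2866, 2519 and 2801 in the knockdown libraries (log2 fold change -0.56, SE 0.10, adjusted p = 0.0111 in edgeR). Scd1, the stearoyl-CoA desaturase, fell by 0.87 on the log2 scale (adjusted p = 0.0111 in edgeR). Both calls were lost without scramble replicate 3 (adjusted p up to 0.0838 for Srebf1 and 0.0793 for Scd1 over the libraries left out) and without knockdown replicate 2. The others that fell were the elongases Elovl5 (-0.84) and Elovl6 (-0.43), malic enzyme Me1 (-0.63) and the carbohydrate-response factor Mlxipl (-0.69). In this list the knockdown libraries did not overlap the scramble libraries in 10 of 18 genes, all below (13.7% of all genes), where the enzymes of cholesterol synthesis had 6 of 19, all above (15.2% of all genes). The difference between the lists was not tested.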

How the data were processed

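Liver RNA-seq of 6 mice (3 rAAV8-sh-scramble, 3 rAAV8-sh-Hnf1aos1) was analysed. The authors trimmed reads with Trimmomatic, aligned them with STAR and, using featureCounts, counted the uniquely mapped reads on exons. The methods name GRCm38 and a stranded poly(A) kit, while the submitters' labels name GRCm39 and depletion of ribosomal RNA. Annotation release and strand setting are not given in the sources used here, and without the strand setting reads of genes that overlap on opposite strands cannot be told apart. The deposited raw counts cover 40895 features, of which 92 were ERCC spike-ins, left out of library sizes and tests. The spike-ins took 1.38 to 1.52% of counts in the scramble and 1.18 to 1.24% in the knockdown group. The authors also deposited TPM, used for levels per length, and a normalized signal (counts divided by 1 factor per library), not used for tests. Their table of log2 fold changes and p-values was not used.

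In R 4.3.3 with edgeR 4.0.16, counts were scaled by TMM, filtered by filterByExpr and compared with robust quasi-likelihood fits with group as sole term, and p-values were adjusted by Benjamini-Hochberg over all genes tested. The biological coefficient of variation was 13.9%. The members and all gene lists were chosen with earlier results of these data known. Genes named are all members, Hnf1aos1, Srebf1 and, from the lists of related genes and markers, those called, at most 8 per list. Spp1, Krt19, Krt7 and Cftr were named after their values were seen. The alternatives were DESeq2 1.42.0, its size factors in edgeR, library totals, library sizes from spike-ins, no filter, a mean of at least 50 counts, a block for the replicate number, voom of limma 3.58.1, limma on log2 of TPM with 0.1 or 1 added, and each library left out. Replicate pairs differed by 7.80 to 32.4 in chi-square per gene, above sampling noise, so each library was counted as 1 sample. The fit was tested on simulated counts of 16327 genes, where a log2 change of 1 was given to 200. It recovered 86.8% of these, and 9.03% of the calls were wrong. The 200 were drawn from genes with a mean of at least 50 counts, and each gene had the same dispersion in both groups. Smaller changes, such as the enzymes' median log2 fold change of 0.50, were not simulated. Exon overlaps and gene positions come from GENCODE M21 (GRCm38), promoters from RefSeq (GRCm38.p6). Figures were drawn with matplotlib 3.10.9.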

Additional observations from a re-analysis of the deposited data

How the results depend on the processing

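With 3 mice per group, the count of called members depended on the setting more than the direction of the enzymes did. Cyp51 was the only member called in the reported fit. DESeq2 called 5 members (2 mevalonate and 3 sterol branch enzymes), where it called 4.47% of 27496 genes, against 6.32% of 16327 in the reported fit. The 27496 genes were not filtered on low counts beforehand as the 16327 were, so these shares are over unlike sets of genes. DESeq2's default filter on mean count acts after its test. Genes it drops get no adjusted p and cannot be called, but stay in the 27496. No filter called 3 members (2 mevalonate) and 6.92% of 27496 genes. DESeq2's size factors in edgeR called 1 member, and library totals, a mean of at least 50 counts and limma's voom 0. Library sizes from spike-ins called 9 (3 mevalonate, 4 sterol branch, 1 control and 1 transport gene), with the median of all genes moved to 0.20 from -0.0004 on the log2 scale and 89.3% of 3394 calls higher, against 48.9% of 1032. Of 1048 calls with library totals 30.4% were higher. The enzyme median relative to that of all genes was 0.50 in the reported fit, with library totals 0.51 and with spike-ins 0.50. No filter gave 1902 calls over all genes, and leaving out single libraries gave 103 (without scramble replicate 3) to 1881 (without knockdown replicate 3).

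Leaving out single libraries gave 0 to 7 members called, 0 to 3 mevalonate and 0 to 4 sterol branch enzymes. The median of the 19 enzymes then ran from 0.25 to 0.66, above 0 in every setting tried. Hnf1aos1 was called with DESeq2 (log2 fold change -0.74), no filter (-0.74), voom (-0.77) and the replicate block (-0.77), and ran from -1.01 to -0.60 with single libraries left out. The replicate numbers are shared between the groups, but the deviations of same-numbered libraries correlated by -0.02, 0.02 and 0.003, so the numbers were not taken to pair mice. With the replicate block 878 genes were called, and among members 1 mevalonate enzyme (Mvk) and 0 sterol branch enzymes.

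Of the related genes called, Cyp7b1 kept its call with each of the 6 libraries left out and Dhdds with none, and the others kept it in 1 to 4 of 6.

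Members whose direction changed all had adjusted p-values above 0.27 in those fits. With spike-in scaling the log2 fold changes of Ggps1 (0.15), Sc5d (0.11), Scap (0.16), Insig2 (0.18) and Npc1 (0.11) moved above 0. With library totals Insig1 was at -0.027 and Mylip at -0.060. The block put Insig2 at 0.0032 and Mylip at -0.00062, voom put Insig2 at 0.0034, and a mean of at least 50 put Mylip at -0.021. On log2 TPM with 0.1 or 1 added, Insig1 was at -0.070 and -0.069, Mylip at -0.079 and -0.069, and Stard4 at -0.00045 and -0.00024. With single libraries left out, Acat2 ran from -0.022 to 0.29, Ggps1 from -0.14 to 0.012, Scap from -0.10 to 0.023, Insig1 from -0.21 to 0.17, Insig2 from -0.17 to 0.16, Mylip from -0.14 to 0.12 and Stard4 from -0.047 to 0.20. Over the members and alternatives, 387 results kept direction and side of the threshold, 22 passed it, 11 (all of Cyp51) lost it and 28 changed direction. The causes were not tested.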
